A study of Mus musculus with 12 samples.

Results

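The myogenic regulatory factors are the 4 basic helix-loop-helix genes *Myod1*, *Myf5*, *Myf6* and *Myog*, and all 4 of them were found by symbol among the 23420 genes of both count tables. They were measured by polyA RNA sequencing of whole mouse embryos collected at E12.5 (day 12.5 of embryonic development), with 12 libraries in 4 groups of 3. The *Carm1* line, labelled C57BL/6, gave *Carm1* null embryos carrying the knockout allele *Carm1*tm1Mtb (here KO) and wild-type embryos. The *Pax3* line, labelled mixed and kept as a closed colony with CBA/Ca, C3H/He and 101 ancestry, gave *Pax3* null embryos carrying the Splotch allele *Pax3*Sp2h (here Sp2h) and wild-type embryos. Embryos of each line came from intercrosses of heterozygotes, both alleles are germline, and no agent was given. CARM1 is an arginine methyltransferase that acts as a transcriptional coactivator, PAX3 is a transcription factor of muscle precursors and neural crest, and the *Pax3* line was included to ask whether embryos lacking *Carm1* show the expression changes of embryos lacking *Pax3*.

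In the embryo, MYF5, MYOD1 and MYF6 (also called MRF4) commit precursor cells to skeletal muscle, and MYOG, myogenin, drives the committed myoblasts to differentiate into fibres. Each pairs with a ubiquitous E protein such as TCF12 or TCF3, binds the short E box sequence and works with MEF2 factors, while ID proteins and TWIST1 oppose it. PAX3 acts upstream of *Myf5* and *Myod1* in the trunk, and is needed for the precursors that migrate to the limbs, whereas muscles of the head form without it.

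In the mm10 (GRCm38) annotation, *Myod1* lies at chr7:46376474-46379099 on the plus strand and *Myog* at chr1:134289989-134292548 on the plus strand. *Myf5* (chr10:107482908-107486134) and *Myf6* (chr10:107492853-107494737) lie next to each other on the minus strand, 6718 bases apart and with no annotated gene between them. Each of the 4 genes has 3 exons and overlaps no other annotated gene. Promoter sequence from RefSeq (GRCm38.p6) was matched for 2 of the 4 members, *Myog* and *Myf5*. Both are printed, and no window was found for *Myod1* and *Myf6*. Each window holds the 250 bases before the RefSeq start, 5′ to 3′ on the strand of the gene, at chr1:134289754-134290003 (plus) and chr10:107486135-107486384 (minus), and the capitals mark matches to 3 motifs read on both strands.
*Myog*: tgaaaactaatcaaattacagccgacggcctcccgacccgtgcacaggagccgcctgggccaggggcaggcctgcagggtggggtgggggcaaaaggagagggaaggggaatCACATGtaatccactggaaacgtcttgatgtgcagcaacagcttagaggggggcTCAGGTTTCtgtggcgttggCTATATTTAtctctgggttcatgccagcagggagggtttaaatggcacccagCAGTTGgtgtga
*Myf5*: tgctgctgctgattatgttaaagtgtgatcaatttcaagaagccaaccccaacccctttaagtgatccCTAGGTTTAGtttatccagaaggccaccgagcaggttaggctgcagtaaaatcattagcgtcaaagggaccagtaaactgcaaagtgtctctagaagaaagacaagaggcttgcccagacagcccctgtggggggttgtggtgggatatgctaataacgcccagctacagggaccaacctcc
The motifs were the E box (CANNTG), a core of the kind bound by MEF2 factors (CTANNNNTA) and the MEF3 site (TCAGGTTTC), known from muscle gene promoters. The *Myog* window held E boxes 138 to 133 and 12 to 7 bases before the start, a MEF2-type core at 64 to 56 bases and a MEF3 site at 84 to 76 bases. In the *Myf5* window, a MEF2-type core on one strand (182 to 174 bases) overlapped a core on the other (181 to 173 bases), and the letters of the other motifs were not found. Of 32851 RefSeq promoter windows of this length, 66.2% held an E box, 19.0% a MEF2-type core, 0.387% the MEF3 letters and 0.0578% all 3. The last bases of the *Myog* window lie inside the annotated transcript, whose start is upstream of the RefSeq start. These matches describe the sequence and do not show binding in these embryos.

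Libraries held 17183344 to 23518692 counts assigned to genes. Levels are given as CPM, the count divided by the TMM-scaled library size and multiplied by 1000000, and fold changes come from edgeR within each line, with adjusted p being the Benjamini-Hochberg value over all genes tested in that line and 0.05 the threshold. Replicates of a group correlated at 0.989 to 0.994 (Pearson, log2 CPM across genes), and whether embryos of a group shared a litter is not given in the labels, so p-values measure the spread between these embryos. The targeted gene *Carm1* was lower in every KO library (70.3 to 77.3 CPM) than in wild-type libraries of its line (139 to 153 CPM), leaving 50.1% of the wild-type RNA. *Pax3* RNA was at 20.5 CPM in Sp2h and 27.8 CPM in wild-type libraries of its line (means, n = 3), with no overlap, and counts over whole genes do not show whether protein is made. Y-linked genes had 100 or more counts in 1 wild-type and 0 KO libraries of the *Carm1* line, and in 2 wild-type libraries (replicates 2 and 3) and 1 Sp2h library (replicate 3) of the *Pax3* line. Because whole embryos were sequenced, fewer muscle cells and less RNA per muscle cell cannot be told apart.

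In wild-type embryos *Myog* was the most abundant member and *Myf6* the least. Per kilobase of exon, *Carm1*-line wild types held 41.7 CPM of *Myog*, 14.2 of *Myod1*, 1.58 of *Myf5* and 0.264 of *Myf6* (means, n = 3). On that scale *Myog* was at 2.95 ± 0.158 times the level of *Myod1* (SD, n = 3) in these embryos and at 2.19 ± 0.285 times in *Pax3*-line wild types. Of the summed CPM per kilobase of the 4 genes, *Myog* made up 64.7% to 72.3% over the 4 group means and *Myod1* 24.5% to 29.8%. *Myf5* made up 2.74% to 5.95% and *Myf6* 0.364% to 1.12%. The order of the 4 members was the same in every group.

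In Sp2h embryos *Myod1*, *Myog* and *Myf5* were lower than in wild types of the line, whereas in KO embryos *Myog* was lower and *Myod1* and *Myf5* did not pass the test. After loss of *Pax3*, *Myod1* stood at 40.9%, *Myog* at 46.7% and *Myf5* at 59.5% of the wild-type mean. In KO embryos *Myog* stood at 83.3% of the wild-type mean. The 3 members called lower in the *Pax3* line compare with 10.5% of 15724 genes called lower there (24.5% in either direction), and the 1 member called in the *Carm1* line with 7.83% of 15811 genes called lower (13.3% in either direction). Over all genes, 868 were called higher and 1238 lower in the *Carm1* line, a split that length and GC offsets turned to 1953 and 1307, and *Myog* kept its call under these offsets.

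**Figure D1:**
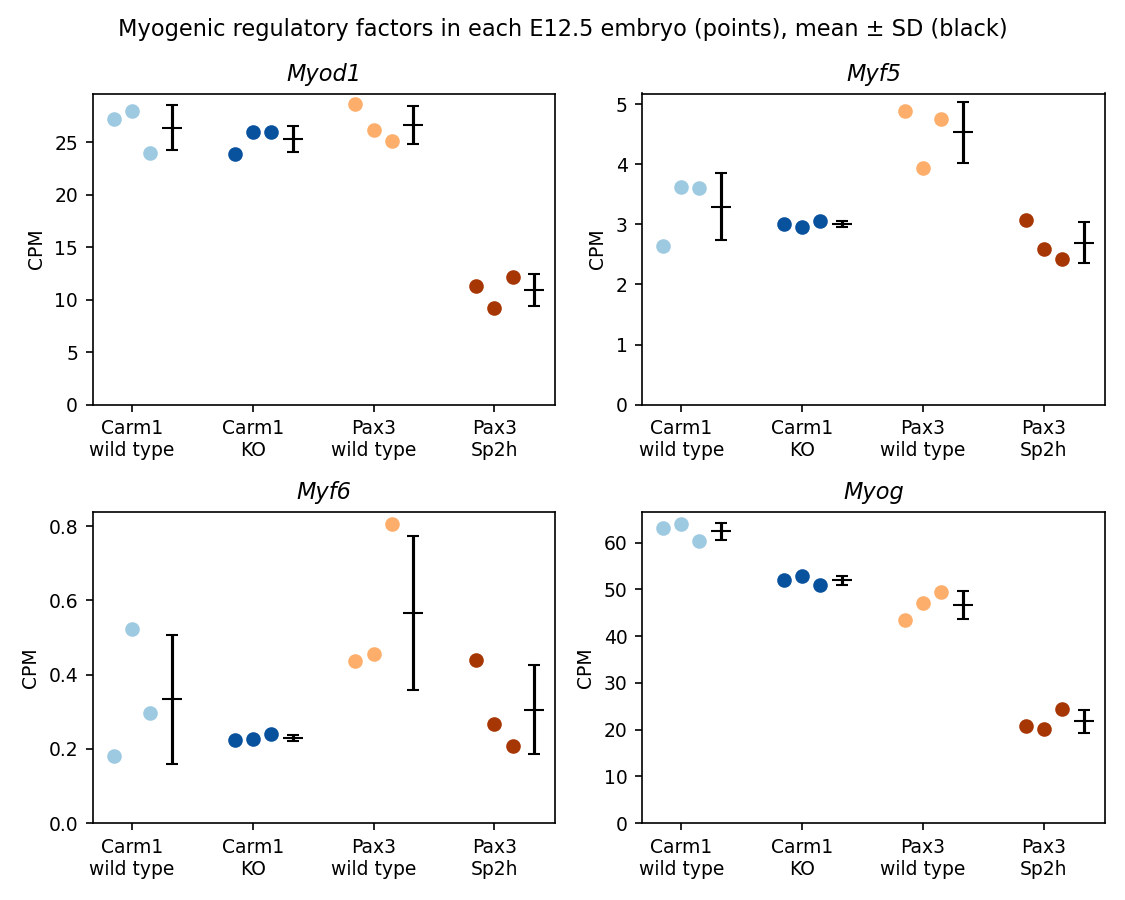
CPM (vertical axis, from 0) of each member in each of the 12 embryos, by line and genotype, with the group mean ± SD in black (n = 3). *Myod1* lay between 9.24 and 12.2 CPM in Sp2h embryos and at 23.8 CPM or above in the other 9. *Myog* lay between 20.1 and 24.4 CPM in Sp2h and between 51.0 and 52.9 CPM in KO embryos.

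*Myod1*, which can convert other cells to muscle, had 27.2, 28.0 and 23.96 CPM in the wild-type libraries of the *Carm1* line (replicates 1 to 3) and 23.8, 26.0 and 26.0 CPM in the KO libraries. Those groups overlapped. Counts from the *Pax3* line gave 28.7, 26.2 and 25.1 CPM in wild-type and 11.3, 9.24 and 12.2 CPM in Sp2h libraries, so that every Sp2h embryo was below every wild type. That was so for 20.3% of genes tested there (39.9% counting both directions). The log2 fold change was -1.28 (SE 0.099, edgeR adjusted p = 4.4e-10) in the *Pax3* line. In the *Carm1* line it was -0.06 (SE 0.078, edgeR adjusted p = 0.66) with a 95% interval of -0.22 to 0.10. In the order of the group means, the 3 groups other than Sp2h did not separate from their neighbours.

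*Myog* had 63.0, 63.9 and 60.3 CPM in *Carm1*-line wild types and 52.0, 52.9 and 51.0 CPM in KO embryos. The groups did not overlap, as for 15.6% of genes tested that were lower in every KO library (30.0% counting both directions). The log2 fold change was -0.26 (SE 0.054, 95% interval -0.37 to -0.15, edgeR adjusted p = 0.00081). The wild-type library with Y-linked counts, replicate 3, was the lowest of its group. With a term for Y-linked counts the log2 fold change was -0.29 (edgeR adjusted p = 0.00032), and without that library it was -0.29 (0.00031). The term marks only this library of the line, so it acts nearly as leaving it out and cannot tell a Y-linked effect from that embryo. *Pax3*-line embryos had *Myog* at 43.4, 47.1 and 49.3 CPM if wild type and at 20.7, 20.1 and 24.4 CPM if Sp2h, again without overlap, as for 20.3% of genes tested there (39.9% counting both directions). Its log2 fold change was -1.09 (SE 0.086, edgeR adjusted p = 6.9e-10). The group mean of *Myog* was lowest in Sp2h, followed by *Pax3*-line wild type, KO and *Carm1*-line wild type. Neighbouring groups in this order did not overlap, but *Pax3*-line wild types reached 49.3 CPM and KO embryos began at 51.0 CPM. That step crosses the lines, where strain, colony and line cannot be told apart. For how many genes all 4 groups separate was not counted.

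*Myf5*, the earliest member expressed in the somites, had 2.65, 3.62 and 3.61 CPM in *Carm1*-line wild types and 3.01, 2.96 and 3.05 CPM in KO embryos. The KO values lay within the wild-type range, and the log2 fold change was -0.15 (SE 0.20, 95% interval -0.56 to 0.26, edgeR adjusted p = 0.70). Its levels in the *Pax3* line were 4.89, 3.94 and 4.75 CPM in wild types and 3.07, 2.59 and 2.42 CPM in Sp2h embryos, and the groups did not overlap. Of genes tested in that line, 20.3% were lower in every Sp2h library (39.9% counting both directions). The log2 fold change there was -0.75 (SE 0.18, edgeR adjusted p = 0.0030). Only 44 to 112 reads were counted for *Myf5* in a library, which widens its intervals against those of *Myod1* and *Myog*.

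*Myf6* was counted 3 to 19 times in a library and passed the filter on low counts in neither line. The *Carm1*-line wild types had 3, 12 and 6 counts and the KO embryos 4 each. For the *Pax3* line there were 9, 8 and 19 counts in wild types and 10, 6 and 5 in Sp2h embryos, and the CPM of the groups overlapped in both lines. From the summed counts, the rate in Sp2h was 0.523 of the wild-type rate (exact 95% interval 0.290 to 0.920), and in KO it was 0.655 (0.294 to 1.39). These intervals cover counting error only. Fitted without the filter, *Myf6* had an edgeR adjusted p of 0.26 in the *Pax3* line and 0.67 in the *Carm1* line. No difference was called, and the parts of low counts and of the spread between embryos in this were not tested.

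The changes in the lines were then compared directly in a fit of all 12 libraries, as the change in the *Carm1* line minus that in the *Pax3* line. The lines differ in strain and colony as well as in the gene lost. A difference between the changes, here and below, therefore cannot be assigned to the gene alone. The difference was 1.22 on the log2 scale for *Myod1* (SE 0.13, edgeR adjusted p = 1.0e-07) and 0.84 for *Myog* (SE 0.094, edgeR adjusted p = 1.5e-07). Both are among the 8.65% of 16292 genes called in that direction (19.1% in either). For *Myf5* it was 0.61 (SE 0.26, 95% interval 0.08 to 1.14, edgeR adjusted p = 0.096), which did not pass the threshold.

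**Figure D2:**
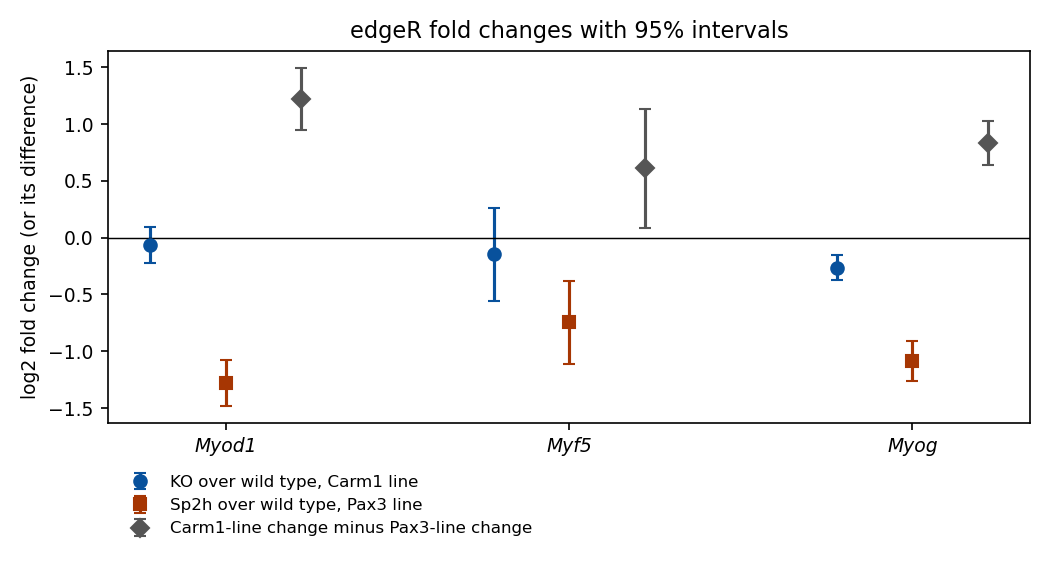
Log2 fold change of mutant over wild type in each line, and the difference of the changes, for the 3 members tested (vertical axis, edgeR estimates with 95% intervals). The *Carm1*-line intervals of *Myod1* and *Myf5* include 0, and that of *Myog* lies between -0.37 and -0.15.

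The wild types of the lines also differed. *Myog* was lower in *Pax3*-line than in *Carm1*-line wild types (log2 difference -0.42, SE 0.064, edgeR adjusted p = 3.0e-06). *Myf5* was higher (0.45, SE 0.17, edgeR adjusted p = 0.035), a call lost under DESeq2 and upper-quartile scaling and when 1 of 3 libraries was left out. *Myod1* differed by 0.01 (95% interval -0.17 to 0.20, edgeR adjusted p = 0.93). In this comparison 43.7% of 16292 genes were called, 20.6% higher and 23.1% lower in the *Pax3* line, and strain, colony and line cannot be told apart.

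Ratios between members within a library do not depend on library size. The log2 ratio of *Myod1* to *Myog* counts was -1.24 ± 0.076 (SD, n = 3) in *Carm1*-line wild types and -1.04 ± 0.079 in KO embryos, without overlap (difference 0.20, exact permutation p = 0.1, two-sided). The same ratio in the *Pax3* line was -0.81 ± 0.19 in wild types and -0.9997 ± 0.12 in Sp2h embryos, with overlap (exact permutation p = 0.2). The log2 ratio of *Myod1* to *Myf5* counts fell from 2.56 ± 0.16 in *Pax3*-line wild types to 2.01 ± 0.28 in Sp2h embryos, and the groups did not overlap (exact permutation p = 0.1). With 3 embryos against 3 the exact test cannot go below 0.1, and over the 12 ratio tests the lowest adjusted p was 0.6.

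**Figure D3:**
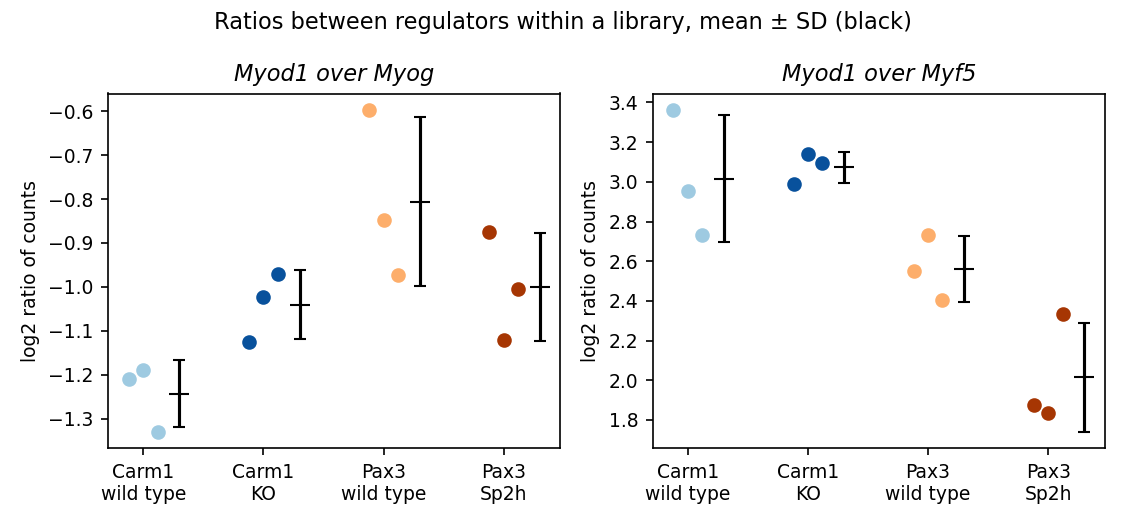
Log2 ratio of counts of *Myod1* to *Myog* (left) and to *Myf5* (right) in each embryo (points), with group mean ± SD in black (n = 3). KO embryos lie above their wild types on the left (difference 0.20), and Sp2h embryos lie below theirs on the right (difference -0.55).

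Of 20 genes that act upstream of the members, 8 were lower and 2 higher in the *Pax3* line, and 1 was lower and 4 higher in the *Carm1* line. Their log2 fold changes had medians of -0.19 and 0.02 in these lines, beside -0.003 and 0.001 over all genes tested. Of all genes tested, 10.5% were called lower and 14.0% higher in the *Pax3* line, and 7.83% and 5.49% in the *Carm1* line. *Met*, the receptor that migrating muscle precursors need to leave the somite, fell from 20.5 to 14.2 CPM in Sp2h embryos (log2 fold change -0.52, edgeR adjusted p = 0.00015). *Pitx3*, a homeobox gene of muscle and dopaminergic neurons, fell as well (-0.62, edgeR adjusted p = 0.0061). *Pax3* itself is counted among the lower genes there (-0.43, edgeR adjusted p = 0.0014). *Tcf21*, a regulator of head muscle precursors that is also expressed in the epicardium and kidney, rose from 6.71 to 10.5 CPM (0.65, edgeR adjusted p = 0.00024). *Six5* was called higher by 0.21 on the log2 scale (edgeR adjusted p = 0.011), a call lost with length and GC offsets and without Sp2h replicate 2 (adjusted p up to 0.55). The call of *Pitx3* was lost without Sp2h replicate 2 (edgeR adjusted p = 0.051).

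Other regulators of muscle precursors did not pass the test in the *Pax3* line. *Lbx1*, which marks limb-bound precursors and dorsal interneurons, had a log2 fold change of -0.20 (edgeR adjusted p = 0.29), *Six4* one of -0.21 (0.067) and *Pax7* one of -0.08 (0.50). In the *Carm1* line *Pax7*, the paralog of *Pax3*, rose (0.36, edgeR adjusted p = 0.0088), and so did *Pax3* itself, from 22.7 ± 1.88 to 29.5 ± 1.56 CPM (SD, n = 3; 0.37, edgeR adjusted p = 0.0010). *Shh*, the notochord and floor plate signal that induces *Myf5*, rose from 8.93 to 14.5 CPM (0.70, edgeR adjusted p = 2.4e-05). *Meox1*, a somite homeobox gene, was the 1 lower gene (-0.26, edgeR adjusted p = 0.029), but its call was lost in 6 of 15 alternatives: DESeq2, one fit of 12 libraries, and without wild-type replicate 1 or 2 or KO replicate 1 or 2 (adjusted p up to 0.12). The call of *Pax7* was lost with a term for Y-linked counts and without KO replicate 1 or 3 (adjusted p up to 0.093). *Lbx1* (-0.30, edgeR adjusted p = 0.22) and *Six4* (0.05, 0.77) did not pass.

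Among 17 partners of the members, *Mef2c*, a MEF2 factor of skeletal and heart muscle, fell in both lines, by 0.27 on the log2 scale in KO (edgeR adjusted p = 0.00022) and by 0.61 in Sp2h embryos (edgeR adjusted p = 8.5e-08). The fall was greater in the *Pax3* line (difference 0.35, edgeR adjusted p = 0.0014). The list had 3 genes higher and 4 lower in the *Carm1* line, *Carm1* among the latter, beside 5.49% and 7.83% of all genes tested, and 2 higher and 7 lower in the *Pax3* line, beside 14.0% and 10.5%. The medians were 0.002 and -0.16. Without wild-type replicate 2 or any 1 KO embryo the *Carm1*-line count was 2 or 3 in place of 7, with 0 higher, and without Sp2h replicate 3 the *Pax3*-line count was 5 in place of 9. The calls of *Mef2c* in both lines and of *Mef2a* in Sp2h embryos (-0.35, edgeR adjusted p = 0.0023) were kept in all 15 alternatives of each line. Others were less stable. *Tcf12*, an E protein partner, had 0.14 in KO (edgeR adjusted p = 0.021) and -0.17 in Sp2h embryos (0.036), calls kept in 10 and 8 of 15 alternatives. Both were lost without any 1 mutant embryo of the line. The KO call was also lost with the replicate block and without wild-type replicate 2 (adjusted p up to 0.11 over all alternatives). The Sp2h call was also lost with length and GC offsets, without the filter, and without wild-type replicate 1 or 3 (up to 0.69). *Prmt5*, another arginine methyltransferase, had 0.15 in KO embryos (edgeR adjusted p = 0.022). That call was kept in 11 of 15 alternatives and lost without wild-type replicate 2 or any 1 KO embryo (adjusted p up to 0.099). In Sp2h embryos the E protein gene *Tcf3* had 0.22 (edgeR adjusted p = 0.0082) and the chromatin remodelling gene *Smarcd3* 0.20 (0.012). Both of these calls, the only higher ones of the list there, were lost with length and GC offsets (adjusted p of 0.37 and 0.77), and they were also lost without Sp2h replicate 2 and 3 respectively.

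Among 20 genes that oppose the members, 3 were higher and 1 lower in the *Carm1* line and 4 were higher and 4 lower in the *Pax3* line, with medians of -0.02 and 0.03. Called in either direction were thus 4 and 8 of 20, beside 13.3% and 24.5% of all genes tested. The *Carm1*-line count was 2 in place of 4 without wild-type replicate 2 or any 1 KO embryo. *Id1*, whose protein sequesters E proteins, rose by 0.31 in KO embryos (edgeR adjusted p = 0.00013) and had a log2 fold change of 0.14 in Sp2h embryos (0.18). *Id3* rose by 0.52 in Sp2h embryos (edgeR adjusted p = 5.3e-07). In KO embryos it had 0.13 (edgeR adjusted p = 0.048), a call lost in 10 of 15 alternatives, DESeq2 and the replicate block among them, and without wild-type replicate 2 or 3 or any 1 KO embryo (adjusted p up to 0.25). *Twist1*, a repressor of MYOD1 that is abundant in mesenchyme, rose from 151 to 201 CPM in Sp2h embryos (0.42, edgeR adjusted p = 8.5e-06) and had a log2 fold change of 0.02 in KO embryos (0.83). *Mstn*, the secreted inhibitor of muscle growth, which differentiating muscle itself makes, fell to 1.94 from 5.34 CPM in Sp2h embryos (-1.46, edgeR adjusted p = 1.5e-06), and *Msc*, a repressor made in head and trunk myoblasts, fell as well (-0.65, edgeR adjusted p = 0.00060). *Hdac5*, a repressor of MEF2, was the lower gene in the *Carm1* line (-0.17, edgeR adjusted p = 0.016), a call lost without wild-type replicate 1 or KO replicate 2 or 3 (adjusted p up to 0.10).

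Of 30 muscle genes downstream of the members, 29 passed the filter. In the *Pax3* line 20 fell and 1 rose, with a median of -0.69, and in the *Carm1* line 12 fell and 1 rose, with a median of -0.26. The 10.5% and 7.83% of all genes called lower stand beside these counts. The difference of the changes passed the test for 12 of the 29, with the *Carm1*-line change the higher for 10 and the lower for 2. Over all 16292 genes tested for this difference, 8.65% were called higher and 10.5% lower.

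**Figure D4:**
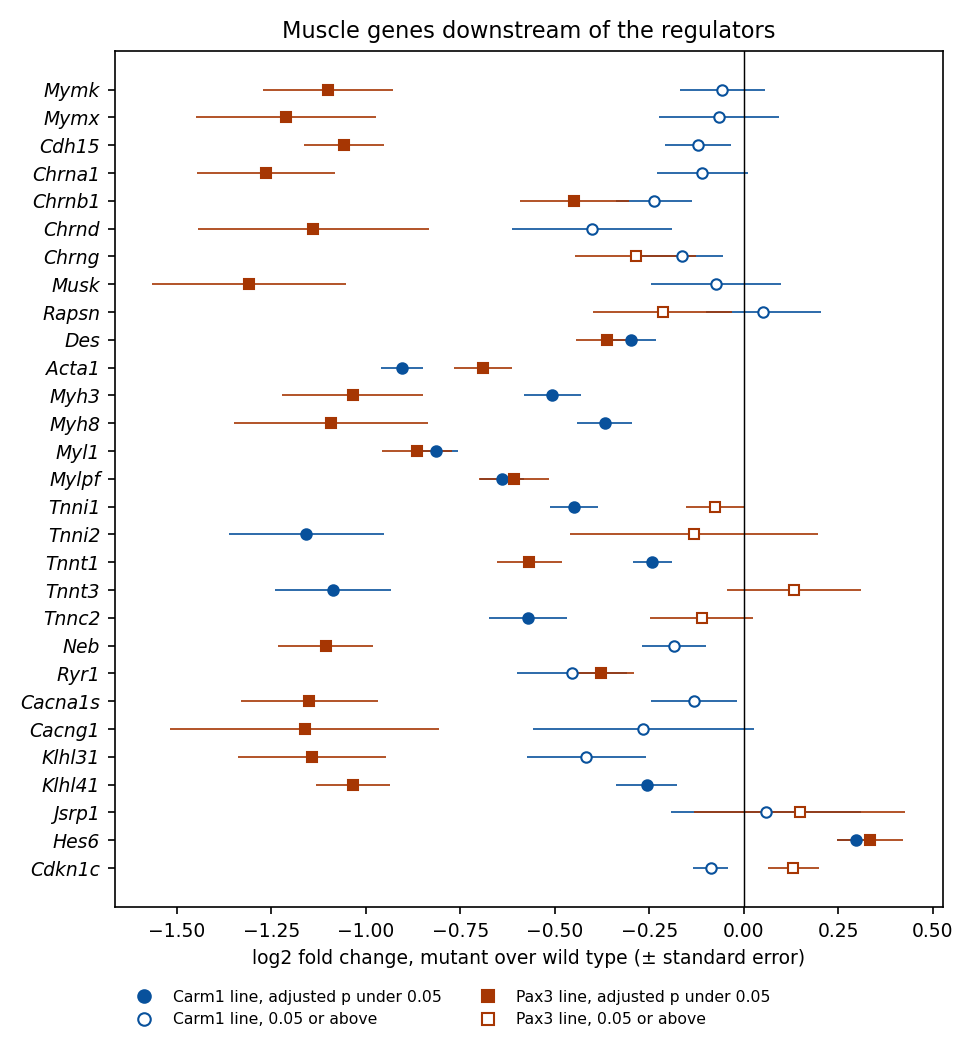
Log2 fold change of mutant over wild type (horizontal axis, ± SE, edgeR) for the 29 downstream muscle genes tested, in the *Carm1* line (circles) and the *Pax3* line (squares), filled where the adjusted p is under 0.05. The fusion genes *Mymk* and *Mymx* lie below -1 in the *Pax3* line and near 0 in the *Carm1* line. *Tnnt3* and *Tnni2* lie below -1 in the *Carm1* line and near 0 in the *Pax3* line, where *Tnni2* had few counts (0.896 CPM in Sp2h and 0.995 CPM in wild types).

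The fusion genes *Mymk* and *Mymx* fell in Sp2h embryos, as did 4 of the 6 genes of the list for the acetylcholine receptor and its clustering. *Mymk* (myomaker, listed as Tmem8c) had a log2 fold change of -1.10 (edgeR adjusted p = 3.1e-05) and *Mymx* (myomixer, listed as Gm7325) one of -1.21 (edgeR adjusted p = 0.00048). *Chrna1*, an acetylcholine receptor subunit, fell by 1.26 on the log2 scale (edgeR adjusted p = 1.2e-05) and *Musk*, the kinase that clusters the receptor, by 1.31 (edgeR adjusted p = 0.00046). The others, named after their values were seen, were the receptor subunits *Chrnd* (-1.14, edgeR adjusted p = 0.0077) and *Chrnb1* (-0.45, 0.025), which fell, and *Chrng* (-0.29, 0.20) and the scaffold gene *Rapsn* (-0.21, 0.43), which did not pass. The call of *Chrnb1* was lost without Sp2h replicate 1 or 2 or wild-type replicate 1 (edgeR adjusted p up to 0.21). *Chrnd*, at 0.69 CPM in Sp2h and 1.56 CPM in wild types, was not called with DESeq2 and elsewhere had an adjusted p up to 0.041. In KO embryos the values were -0.06 for *Mymk* (edgeR adjusted p = 0.80), -0.07 for *Mymx* (0.84), -0.11 for *Chrna1* (0.62) and -0.07 for *Musk* (0.84). *Mymk*, *Mymx*, *Chrna1* and *Musk* differed between the lines, by 1.05 for *Mymk* (edgeR adjusted p = 0.00022), 1.16 for *Mymx* (0.0031), 1.17 for *Chrna1* (0.00013) and 1.24 for *Musk* (0.0031). The difference did not pass for *Chrnb1* (0.22, edgeR adjusted p = 0.42), *Chrnd* (0.74, 0.15), *Chrng* (0.13, 0.67) and *Rapsn* (0.28, 0.46).

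The genes that fell in KO embryos included parts of the contractile apparatus. Skeletal actin (*Acta1*) went from 76.6 ± 2.39 to 41.0 ± 1.66 CPM (SD, n = 3; log2 fold change -0.90, edgeR adjusted p = 1.1e-13), beside -0.69 in the *Pax3* line (edgeR adjusted p = 2.0e-07). The light chains *Myl1* (-0.82 in KO, -0.87 in Sp2h) and *Mylpf* (-0.64 and -0.61) and desmin, *Des* (-0.30 and -0.36), were called lower in both lines. For these 4 genes the difference between the lines did not pass the test, with values of -0.20 for *Acta1* (edgeR adjusted p = 0.087), 0.06 for *Myl1* (0.75), -0.02 for *Mylpf* (0.93) and 0.07 for *Des* (0.67). Other contractile genes of the list, named after their values were seen, did differ. These were *Tnni1* (-0.36, edgeR adjusted p = 0.0069), *Tnnt1* (0.34, 0.011) and *Neb* (0.93, 0.018). For *Myh3* (0.54, 0.13) and *Myh8* (0.73, 0.12) the difference did not pass. *Tnnt3* and *Tnni2*, fast troponin genes, had the lowest log2 fold changes of the list in KO embryos, and the third fast troponin gene, *Tnnc2*, named after its values were seen, had -0.57 (edgeR adjusted p = 0.00019). *Tnnt3* fell by 1.09 (edgeR adjusted p = 8.3e-06) and had 0.13 in the *Pax3* line (0.63), a difference of -1.21 (0.0010). *Tnni2* fell by 1.16 (edgeR adjusted p = 0.00016) and had -0.13 in the *Pax3* line (0.81), a difference of -1.01 (0.055) that did not pass. In the *Pax3* line it was at only 0.896 CPM in Sp2h and 0.995 CPM in wild types (SE 0.33 for its log2 fold change). A change of *Tnni2* there is therefore poorly measured. *Hes6*, a bHLH gene of myoblasts and neural precursors, was the gene that rose in both lines (0.30 and 0.33), though in the *Pax3* line not with length and GC offsets (edgeR adjusted p = 0.80).

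Set against the members, the downstream genes did not move in one way. The log2 ratio of the summed counts of the 30 genes to those of the 4 members was 4.41 ± 0.042 in *Carm1*-line wild types and 4.37 ± 0.034 in KO embryos (exact permutation p = 0.2), and 4.14 ± 0.066 in *Pax3*-line wild types and 5.13 ± 0.11 in Sp2h embryos (exact permutation p = 0.1, the lowest possible). *Cdkn1c*, a cell cycle inhibitor expressed in many tissues and named here after its values were seen, supplied 43.6% to 65.8% of the summed counts. Without the 3 genes of highest counts (*Cdkn1c*, *Myh3* and *Hes6*), the difference was -0.22 in the *Carm1* line and 0.51 in the *Pax3* line (exact permutation p = 0.1 for each). Of the genes left out, *Myh3* had log2 fold changes of -0.51 in KO and -1.03 in Sp2h embryos, and *Hes6* 0.30 and 0.33.

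Markers of other tissues moved as well, and their part in the members' changes was not tested. Their counts stand beside 7.83% of all genes called lower in the *Carm1* line, and 14.0% higher and 10.5% lower in the *Pax3* line. Of 10 heart markers, 2 were called lower in KO embryos (*Myh6*, -0.47, and *Tnni3*, -0.39) and 4 rose in Sp2h embryos, led by *Myl7* (0.82) and *Nppa* (0.61). The KO calls were kept in 12 and 6 of 15 alternatives (edgeR adjusted p up to 0.18 and 0.15), with 0 or 1 of them left in one fit of 12 libraries, with DESeq2, the replicate block or the Y-linked term, and without wild-type replicate 1 or 3 or any 1 KO embryo. Their summed level was 165 to 170 CPM in KO against 189 to 216 CPM in wild types, and 195 to 235 CPM in Sp2h against 152 to 160 CPM. Of 10 liver markers, 8 fell in KO embryos (1626 to 1963 CPM summed in wild types, 899 to 1089 in KO), led by *Serpina1a* (-1.41) and *Alb* (-1.41), and 3 fell in Sp2h embryos (1174 to 1452 and 971 to 1061 CPM), *Afp* (-0.38) and *Trf* (-0.33) among them. Of 10 neuronal markers, 4 fell in KO (1930 to 2079 and 1756 to 1816 CPM), with *Stmn2* at -0.26 and *Syt1* at -0.25 (called in 11 of 15 alternatives), and 6 fell in Sp2h embryos (1914 to 2040 and 1662 to 1775 CPM), with *Nefl* at -0.34 and *Elavl4* at -0.30. Of 8 tendon and connective tissue markers, 4 fell in KO embryos (242 to 260 and 213 to 228 CPM), with *Thbs4* at -0.69 and *Kera* at -0.68. In Sp2h embryos *Kera* was called lower (-0.67) and *Scx* higher (0.31), calls kept in 12 and 11 of 15 alternatives and lost, among others, without wild-type replicate 1 or Sp2h replicate 3 (edgeR adjusted p up to 0.13 and 0.53), with sums of 202 to 213 and 189 to 208 CPM. None of these markers was at 0 in a whole group.

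The genes whose log2 CPM followed each member most closely over the 12 libraries, after centring each line on its mean, were looked up among 14843 genes. For *Myod1* they were *Rgs5*, a pericyte gene (r = 0.98), *Klhl41*, a muscle kelch gene (0.96), and *Pappa2* (0.96). For *Myog* they were *Prdm12*, a regulator of pain-sensing neurons (0.98), *Klhl41* (0.98) and *Mef2c* (0.97). *Klhl41* is the gene that both lists hold, and it went from 18.9 to 9.15 CPM in the *Pax3* line and from 22.4 to 18.8 CPM in the *Carm1* line. Within the *Carm1* line alone it correlated with *Myod1* at 0.40 and with *Myog* at 0.99, and within the *Pax3* line at 0.99 and 0.98. For *Myod1* the values within the *Carm1* and *Pax3* lines were 0.95 and 0.98 with *Rgs5*, and 0.75 and 0.97 with *Pappa2*. For *Myf5* they were *Rbm26*, *Tmem184c* and *Parpbp* (0.98, 0.97 and 0.97), and for *Myf6* *Tfap2e*, *Nusap1* and *Eif4a1* (0.93, 0.92 and 0.91), at levels where counting error is large. The members themselves correlated at 0.96 for *Myod1* and *Myog*, 0.84 for *Myod1* and *Myf5*, and 0.83 for *Myf5* and *Myog*. After each group was also centred, these were 0.42, -0.06 and -0.37. Centring each line keeps the gap between its mutants and wild types, so a shared fall in the mutants raises the line-centred values. For the genes other than members, values with each group centred were not computed. Libraries of a line share controls and all values share the scaling, and these correlations are descriptions.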

How the data were processed

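PolyA RNA of 12 homogenized whole embryos was sequenced in paired 150 bp reads. The authors aligned reads to mm10 with STAR and counted those in exons with featureCounts, and the deposited values are raw counts per gene, in 1 table per line; versions and the strand setting are not given in the sources used here. Of 23420 symbols, 21777 matched GENCODE M21 as written, 1298 through older symbols and 345 not at all.

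Genes were kept with filterByExpr, scaled by TMM and tested with edgeR 4.0.16 (glmQLFit, robust, and glmQLFTest, R 4.3.3) within each line; the difference between lines and between wild types came from 1 fit of 12 libraries, whose TMM factors also scaled the printed CPM. The Benjamini-Hochberg threshold was 0.05. Exact permutation tests used SciPy 1.17.1. Alternatives were DESeq2 1.42.0, other scalings and filters, a replicate block, a Y-linked term, length and GC offsets (values for 99.2% of genes), and each library left out. In the *Carm1* line the Y-linked term marks a single library, and so nearly repeats leaving that library out. The fits were also run on counts simulated from the means and dispersions of these libraries, and no result given here rests on that run.

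The members, lists and tests were chosen with earlier results of these data known. Named beside the members were *Carm1*, *Pax3*, 16 genes chosen by role, the 2 higher and 2 lower called genes of largest change per list and line (mean of at least 1 CPM), and the 3 genes most correlated with each member. No 2 libraries held the same values. The values of 1 of the genes chosen by role are not reported here. Each sample is 1 embryo, grouped by the genotype in its labels.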

Additional observations from a re-analysis of the deposited data

Results flagged for a closer look

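The change in the *Carm1* line and that in the *Pax3* line differed for *Myod1* by 1.22 on the log2 scale (edgeR adjusted p = 1.0e-07), with a 95% interval of 0.95 to 1.497. *Myod1* was lower in 3 of 3 Sp2h embryos than in any wild type of that line, while its KO and wild-type values overlapped. In the *Pax3* line 20.3% of genes tested were lower in every Sp2h library (39.9% did not overlap in either direction). Gene lost, strain and colony cannot be told apart in the difference between the lines.

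For *Myog* the changes differed by 0.84 on the log2 scale (edgeR adjusted p = 1.5e-07), with a 95% interval of 0.64 to 1.03. *Myog* was lower in 3 of 3 mutants than in any wild type in both lines, so that the lines differed in the size of the fall. Lower in every mutant library were 15.6% of genes tested in the *Carm1* line and 20.3% in the *Pax3* line. With 3 embryos in a group, single embryos were not tested for standing apart.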

How the results depend on the processing

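The calls of *Myod1*, *Myf5* and *Myog* within each line and between the lines kept direction and side of the threshold under every alternative run. With 1 library left out, *Myog* in the *Carm1* line ranged from -0.29 to -0.24 (edgeR adjusted p up to 0.013), *Myf5* in the *Pax3* line from -0.85 to -0.67 (up to 0.023), *Myog* there from -1.18 to -1.04 and *Myod1* from -1.37 to -1.17. *Myf6* passed the filter within the *Pax3* line in 5 fits that left out a library (edgeR adjusted p of 0.14 to 0.41), and in no alternative of any comparison that gave it an adjusted p was it called.

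Between wild types, *Myf5* (0.45) was no longer called with DESeq2 (0.46, adjusted p = 0.073) or upper-quartile scaling (0.42), and was 0.33 to 0.54 with a library left out, losing its call without *Carm1*-line replicate 1 or *Pax3*-line replicate 1 or 3. *Myod1* changed sign with upper-quartile scaling (-0.021), and with a library left out it was -0.053 to 0.061, below 0 without *Carm1*-line replicate 3 or *Pax3*-line replicate 1. The causes were not tested.

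The downstream ratio was -0.17 and 0.34 (*Carm1* and *Pax3* lines) as a mean of log2 CPM, and -0.22 and 0.51 without the 3 highest genes.

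Counts over short lists moved most. In the *Carm1* line, genes opposing the members numbered 2, not 4, with DESeq2, with 10 counts in every library, in one fit of 12 libraries and with the replicate block, and 7 with length and GC offsets; heart markers numbered 1, not 2, with DESeq2, the block or the Y-linked term, and 0 in one fit of 12 libraries. In the *Pax3* line, length and GC offsets gave 2 heart and 1 tendon marker in place of 4 and 2. With the replicate block, partners in the *Carm1* line numbered 4 in place of 7, and liver markers in the *Pax3* line 5 in place of 3.

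With 1 library left out, list counts in the *Carm1* line were 3 to 5 for upstream genes (3 without KO replicate 1), 2 to 7 for partners (2 or 3 without wild-type replicate 2 or any KO replicate), 2 to 5 for opposing genes (2 without the same 4 libraries), 0 to 2 for heart markers (0 or 1 without wild-type replicate 1 or 3 or any KO replicate) and 2 to 4 for tendon markers (2 without wild-type replicate 2 or KO replicate 1). In the *Pax3* line they were 5 to 9 for partners (5 without Sp2h replicate 3) and 0 to 2 for tendon markers (0 without wild-type replicate 1, 1 without Sp2h replicate 3). Downstream genes called numbered 12 to 15 and 18 to 22 over all alternatives in the *Carm1* and *Pax3* lines.

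Length and GC offsets gave 1953 higher and 1307 lower genes in the *Carm1* line (868 and 1238 otherwise), and 1336 and 1097 in the *Pax3* line (2198 and 1653 otherwise). Without KO replicate 1 the *Carm1* line gave 469 and 755, without KO replicate 2 539 and 842, and without wild-type replicate 2 509 and 840. Without Sp2h replicate 3 the *Pax3* line gave 1526 and 928, and without Sp2h replicate 1 1609 and 956.

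Same-numbered embryos correlated at -0.04 to -0.01 in the *Carm1* line and -0.07 to 0.20 in the *Pax3* line. Embryos of different number correlated at -0.02 to 0.04 and at -0.28 to 0.18. The ranges overlapped in both lines, so these values show no clear pairing by replicate number and cannot exclude it. With the replicate block, *Myog* was -0.26 in the *Carm1* line (edgeR adjusted p = 0.0026), and no call of a member changed. *Myf6* and *Myf5* had low counts, at most 19 and 112 in a library.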
